A study of Mus musculus with 386 samples.

Results

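The cells described here are the P2.5 mouse oocytes with the highest and the lowest summed level of 6 genes of oocyte growth. Per P2.5 column of the deposited count table, the counts-per-million values (CPM, over gene counts) of Zp1, Zp2, Zp3, Gdf9, Padi6 and Nlrp5 were added, and the sum is called the growth score. The high-score group is the 79 columns with the highest score and the low-score group the 79 with the lowest, each 1 in 4 of the P2.5 columns. The series has 386 columns, namely 22 of E17.5, 47 of P6.5 and the remainder of P2.5. Columns that differed by less than other pairs of the same age were counted as 1 cell, which left 70 cells in the high-score and 76 in the low-score group. The cells were female germ cells picked singly after mouse ovaries of these ages were dissociated, and the ages are days of embryonic or postnatal life. Each library was made with Smart-seq2, which copies and amplifies polyadenylated RNA of 1 cell, with ERCC spike-in RNA counted in 92 rows beside 54658 gene rows. The labels name no strain, genotype, treatment, animal, litter or batch, so each age is 1 sample of many cells. No test was made, because the groups were chosen by measured values and cells of 1 age are not replicates.

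In the days after birth a mouse oocyte becomes enclosed by flat pregranulosa cells in a primordial follicle. It either stays small and dormant or enters growth, in which it enlarges, deposits its coat (the zona pellucida) and accumulates proteins and RNAs for the embryo. Zp1, Zp2 and Zp3 encode coat proteins, and Gdf9 encodes a growth factor of the TGF-beta family that the oocyte secretes toward the granulosa cells. Padi6 and Nlrp5 encode proteins of the cytoplasmic lattices and the subcortical maternal complex, assemblies that the egg stores for the early embryo. The transcription factors Figla, Nobox, Sohlh1 and Lhx8 are needed for oocyte genes in the primordial follicle, and Figla is known to act on coat genes through a DNA motif called the E-box.

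Promoter sequences are shown for rule genes Padi6 and Zp3, for the secreted factor Bmp15 and for Elobl, which had the largest ratio among called genes with at least 20 CPM, because these are genes that were higher together. Each is the 250 bases before the RefSeq start site on GRCm38.p6, from the RefSeq promoter table, with E-boxes (the letters CANNTG, which read the same on both strands) in capitals. The windows lie at chr5:135979855-135980104 on the plus strand for Zp3 and, on the minus strand, at chr4:140742644-140742893 for Padi6, chrX:6320725-6320974 for Bmp15 and chr11:88966932-88967181 for Elobl.
Zp3: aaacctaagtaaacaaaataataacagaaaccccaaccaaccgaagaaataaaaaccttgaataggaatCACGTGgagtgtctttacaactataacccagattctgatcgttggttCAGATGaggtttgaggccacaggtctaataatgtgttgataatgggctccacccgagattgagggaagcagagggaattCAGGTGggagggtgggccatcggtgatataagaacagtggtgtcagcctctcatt
Padi6: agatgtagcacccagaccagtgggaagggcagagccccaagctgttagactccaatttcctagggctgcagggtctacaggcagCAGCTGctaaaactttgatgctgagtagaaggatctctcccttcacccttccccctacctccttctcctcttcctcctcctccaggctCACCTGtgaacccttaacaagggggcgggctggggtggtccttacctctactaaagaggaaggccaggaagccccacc
Bmp15: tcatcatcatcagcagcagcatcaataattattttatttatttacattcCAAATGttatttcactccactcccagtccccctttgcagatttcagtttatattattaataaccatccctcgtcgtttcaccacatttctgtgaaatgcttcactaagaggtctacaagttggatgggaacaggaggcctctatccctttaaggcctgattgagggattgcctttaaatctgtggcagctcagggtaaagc
Elobl: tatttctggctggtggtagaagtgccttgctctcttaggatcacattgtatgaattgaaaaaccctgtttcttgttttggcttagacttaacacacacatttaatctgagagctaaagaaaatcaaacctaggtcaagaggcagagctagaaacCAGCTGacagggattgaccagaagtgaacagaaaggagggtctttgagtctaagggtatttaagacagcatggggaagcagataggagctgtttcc
The E-box nearest the start site began 55 bases before it in Zp3, which held 3, and 78 bases before it in Padi6, which held 2. Bmp15 and Elobl held 1 each, that of Elobl 96 bases before the start site. At least 1 E-box stood in 66.2% of 32851 promoters of the table, counted without 1 chromosome and without repeated sequences of a gene. The share was 57.2% for promoters of the genes measured here and 68.04% for those of genes at least 2-fold higher in the high-score group. Of these higher genes 77.7% had a promoter among those counted. For the single core CACCTG, which is one form of the E-box, the shares were 17.2%, 16.04% and 25%. The core was among 4 motifs searched, all on both strands, with TAATTG in 7.17%, 4.37% and 4.75% and TATAAA in 12.4%, 6.11% and 5.38%. A match gives letters in a window and not a bound site.

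The growth score ran from 934 to 21725 CPM over the P2.5 columns, with a median of 6656. Columns of the low-score group reached up to 4857 CPM (median 3725), and the next column above stood at 4866. Columns of the high-score group began at 9410 CPM (median 12093), and the next below stood at 9386. The limits of the groups thus lie within one range of values, with medians 3.25-fold apart. In E17.5 libraries the same sum was 0.0972 to 78.2 CPM, below every P2.5 column. In P6.5 libraries it was 15845 to 60689 CPM (median 36325). The scores of 11 high-score columns lay above the lowest P6.5 library and 0 above the P6.5 median.

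**Figure D1:**
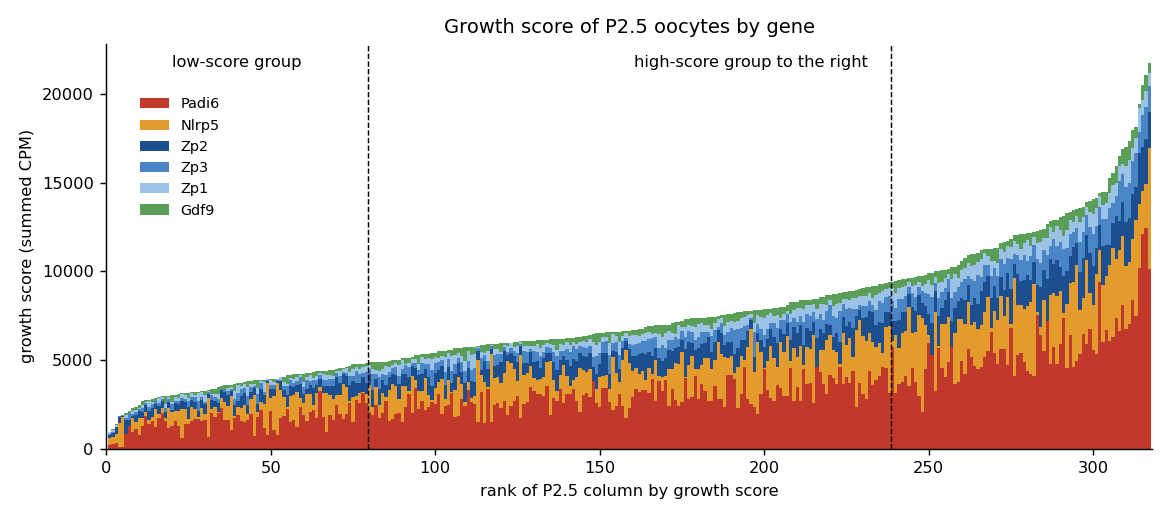
Growth score of each P2.5 column in rank order (x axis, rank; y axis, summed CPM), with each bar divided by gene and dashed lines at the limits of the groups. Padi6 is the largest segment over all columns (44%), the bars rise without a visible step, and the Nlrp5 segment varies widely between neighbouring columns.

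Among the 6 genes, Padi6 held 44% of all score counts in CPM, Nlrp5 23.3%, Zp2 13%, Zp3 8.81%, Zp1 6.04% and Gdf9 4.96%. These levels chose the cells and are given as a description. Padi6, of the peptidylarginine deiminase family, ran from 89.3 to 3241 CPM in low-score cells (median 1631) and from 2096 to 12293 CPM in high-score cells (median 5396). The 2 ranges overlapped, and 67 of 70 high-score cells stood above every low-score cell. Zp3, the main sperm-binding coat protein gene of older models, ran from 16.6 to 727 CPM (median 231.7) in low-score cells and from 360 to 2248 CPM (median 1171) in high-score cells, where 60 cells were above every low-score cell. Zp2 had medians of 436.6 and 1467 CPM, Zp1 of 187.7 and 706 CPM and Gdf9 of 163.6 and 567 CPM. Every high-score cell stood above the low-score median of these 5 genes.

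Nlrp5 did not follow the other rule genes as closely. Its range was 14.5 to 2907 CPM in low-score cells (median 750) and 4.53 to 6819 CPM in high-score cells (median 2892), so that 10 of 70 high-score cells lay below the low-score median. In 11 high-score columns Nlrp5 was itself among the lowest 1 in 4 of all P2.5 columns, at 4.53 to 465 CPM, while Padi6 in the same columns was 5275 to 7544 CPM. Over all P2.5 columns the Spearman correlation of each gene with the sum of the other 5 was 0.68 to 0.80 for Zp1, Zp2, Zp3, Gdf9 and Padi6, and 0.27 for Nlrp5. These values share the library totals of the same columns and carry no p. When Nlrp5 was left out of the score, 67 of the 79 high-score columns and 66 of the 79 low-score columns remained.

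RNA content was read as gene counts per ERCC count, a scale that assumes the same amount of spike-in in every cell. Bottom cells ran from 65.8 to 1412 (median 428.6, quartiles 254.6 to 636) and high-score cells from 151.4 to 1502 (median 503, quartiles 367 to 800.01). The ranges overlapped over most of their length, the medians were 1.17-fold apart, and 43 of 70 high-score cells lay above the low-score median. The middle groups had medians of 463.6 and 461.3, with no step between them. Over all P2.5 cells the Spearman correlation of score and RNA content was 0.17. The spread of this ratio within a group was therefore larger than the difference between the groups. By contrast the medians of the ages were 81.3 at E17.5 and 3203 at P6.5, and 0 high-score columns reached the lowest P6.5 library, which had 1885. The 11 columns whose score lay above the lowest P6.5 score had an RNA content of 299.2 to 1173 (median 486). Counts of the 6 rule genes per ERCC count, which the rule fixes in part, had medians of 1.52 in low-score and 6.32 in high-score cells.

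Sequencing depth differed in the same direction. The median library held 5.01e+06 gene counts in low-score cells (435560 to 1.61e+07) and 7.73e+06 in high-score cells, 1.54-fold more, and 62 of 70 high-score cells were above the low-score median. When the P2.5 columns were divided into 4 bins by gene counts, the bin of lowest depth held 31 low-score and 9 high-score columns, and the bin of highest depth 13 and 35. With the 2 groups taken within each of these bins, the median depths were 6.15e+06 and 6.17e+06, and the fold of RNA content turned to 0.957. Gene counts are also the numerator of RNA content, so these bins fix part of the value compared. They also exchanged columns, with 59 of the high-score and 64 of the low-score columns kept. Whether depth has a part in the small difference in RNA content was not tested. The numbers of genes with a count were 15727 and 16603, and 11741 and 11947 after every cell was thinned to 435560 counts. The counts of ERCC themselves had medians of 11753 and 14660. In 4 blocks of 79 or 80 columns by library number, the high-score group had 24, 15, 25 and 15 columns and the low-score group 23, 22, 19 and 15.

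**Figure D2:**
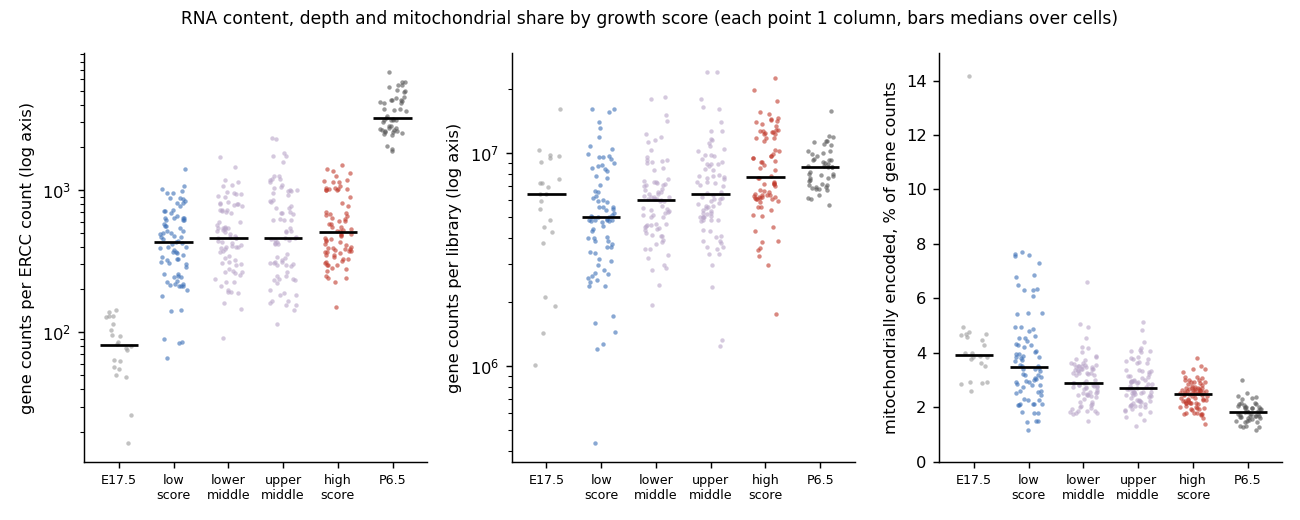
Gene counts per ERCC count (left, log axis), gene counts per library (middle, log axis) and the share of mitochondrially encoded counts (right) in E17.5 libraries, the 4 score groups of P2.5 and P6.5 libraries; each point is 1 column and bars are medians over cells. The P2.5 groups overlap in RNA content, and their medians (428.6 to 503) lie between those of both other ages. The median mitochondrial share falls from 3.47% in the low-score to 2.48% in the high-score group.

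Both groups carried germ cell RNA at a like level. Summed over Mael, Dazl, Sycp3, Taf4b, Ddx4 and Dppa3, germ cell markers came to 2002 to 7034 CPM in low-score cells (median 4027) and 3013 to 5460 CPM in high-score cells (median 3872), with all 6 genes detected in both. RNA of other cell types, as at least 10 counts of a non-germ list after thinning to 100000 counts, was seen in 13 of 76 low-score cells (17.1%) and 4 of 70 high-score cells (5.71%). In the lower middle group the share was 24% (18 of 75 cells) and in the upper middle group 13.5% (10 of 74). The stroma list (8 genes, none at 0) had medians of 27.8 CPM in low-score (0 to 1552) and 7.79 CPM in high-score cells (0.158 to 113.3). The erythroid list (8 genes, 2 at 0 in both groups) had medians of 15.7 CPM (0 to 1170) and 7.70 CPM (0 to 141.99). Endothelial markers (6 genes, none at 0) had medians of 15.2 (0.165 to 89.9) and 7.07 CPM (0 to 84.6), and granulosa and pregranulosa markers (14 genes, 1 at 0 in the low-score group) 22.3 (1.34 to 2263) and 17.3 CPM (0.82 to 402). Immune and mast cell markers (9 genes, 1 at 0 in both groups) had medians of 4.16 (0 to 67.8) and 12.2 CPM (0 to 54.7) and perivascular and smooth muscle markers (6 genes, none at 0) 1.99 (0 to 61.6) and 2.77 CPM (0 to 48.6). Surface epithelium markers (7 genes, none at 0) had medians of 2.58 (0 to 282.9) and 5.42 CPM (0 to 37.9), while their summed counts went the other way, at 13.3 and 7.55 CPM. A gene at 0 here had no count in any cell of the group. Genes with a median of 0 over low-score and high-score cells were more, at 3 and 3 for stroma, 4 and 4 erythroid and 5 and 4 endothelial. They were 10 and 9 for granulosa and pregranulosa, 8 and 7 immune, 5 and 5 perivascular and 6 and 5 surface epithelium.

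Across all other genes, 10912 of 54658 were measured, which needed at least 5 CPM in the summed counts of either group and a count in at least 50% of cells of the higher one. A gene was called when the summed CPM of the groups, after adding 0.5, differed at least 2-fold and the median over cells lay on the same side. By this rule 520 genes were called, 2.83% of the measured genes as higher and 1.93% as lower in the high-score group. At 1.5-fold the counts were 919 (8.42%) and 891 (8.17%). Over the measured genes the log2 ratio had a median of −0.04, with quartiles of −0.30 and 0.23. Higher genes made up 59.4% of 2-fold calls, and 76.2% with trimmed-mean (TMM), 80.7% with median-of-ratios and 91.6% with ERCC scaling, which moved the median of all genes by 0.15, 0.20 and 0.38. The share was 40% with a lower minimum of 1 CPM and 3 cells, and 74.5% with one of 20 CPM. In 50.6% of the calls the gene was under 5 CPM in the lower of the groups, so that it was measured through the other group alone and had to differ. With the 2 groups taken within bins of gene counts there were 480 calls, of which 393 were genes called before in the same direction. Without cells that carried markers of other types there were 497, of which 425 were called before in the same direction. When the score was taken per ERCC count, 37 of 58 calls of named genes ended. With a minimum of 20 CPM 9 ended, among them those of Nlrp4b, Eif4e1b, Dusp1, Chac1, Trib3 and Aurkc. Other settings that ended a call are given or counted beside the gene.

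The 12 named genes with the highest ratios included several that are known from the growing oocyte and the egg. Elobl, a relative of the transcription elongation and ubiquitin ligase factor elongin B (ENSMUSG00000057534.13, chromosome 11, 88964658 to 88966931, minus strand, GENCODE M21 on GRCm38), had 0 to 53.1 CPM in low-score cells (median 1.34) and 1.01 to 296.6 CPM in high-score cells (median 48.8). The groups overlapped, yet 69 of 70 high-score cells lay above the low-score median. Its summed levels of 6.24 and 93.2 CPM gave a log2 ratio of 3.90, with an exact Poisson 95% interval of 3.85 to 3.96 that, like every such interval here, covers the counting of reads only. Npm2, nucleoplasmin 2, a histone chaperone of the egg (ENSMUSG00000047911.6, chromosome 14, 70647302 to 70659244, minus strand), had 0 to 143.9 CPM in low-score cells (median 29.8) and 0 to 1032 CPM in high-score cells (median 309.9). Of the high-score cells 53 stood above every low-score cell, and the log2 ratio was 3.21 (3.19 to 3.23). The promoter of Elobl with its single E-box is printed above.

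Kpna7, the importin alpha of oocytes and early embryos (ENSMUSG00000038770.17, chromosome 5, 144983519 to 145084030, minus strand), had medians of 1.49 CPM in low-score (0 to 47.7) and 33.2 CPM in high-score cells (0 to 130.1). It was counted in 73.7% of low-score and 98.6% of high-score cells. Zar1, an RNA-binding protein needed for maternal mRNA storage and for the start of embryonic development (ENSMUSG00000063935.3, chromosome 5, 72576806 to 72581254, minus strand), had medians of 2.46 (0 to 110.5) and 28.1 CPM (0.163 to 303.7). Their log2 ratios were 3.20 (3.14 to 3.27) and 2.93 (2.88 to 2.98). Both genes overlapped between the groups, with 23 and 11 high-score cells above every low-score cell. The other 8 were Pstpip1, a cytoskeletal adaptor gene (log2 ratio 3.54), the oocyte ring-finger relative Rfpl4 (2.65), Miox, for myo-inositol oxygenase (2.58), the transcription factor gene Mef2b (2.45), Khdc1b (2.38), Pramef20 (2.25), the EF-hand gene Efcab6 (2.23) and Khdc3 (2.22). At least 1 low-score cell had 0 counts of each of the 12, and 59 to 69 high-score cells were above the low-score median. Kpna7, Pstpip1 and Khdc3 were measured through the high-score group alone, with low-score sums of 4.68, 2.29 and 4.77 CPM. Khdc1b, Pramef20 and the Nlrp and Oas1 genes below belong to families of close copies, and how reads were split between copies is uncertain.

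**Figure D3:**
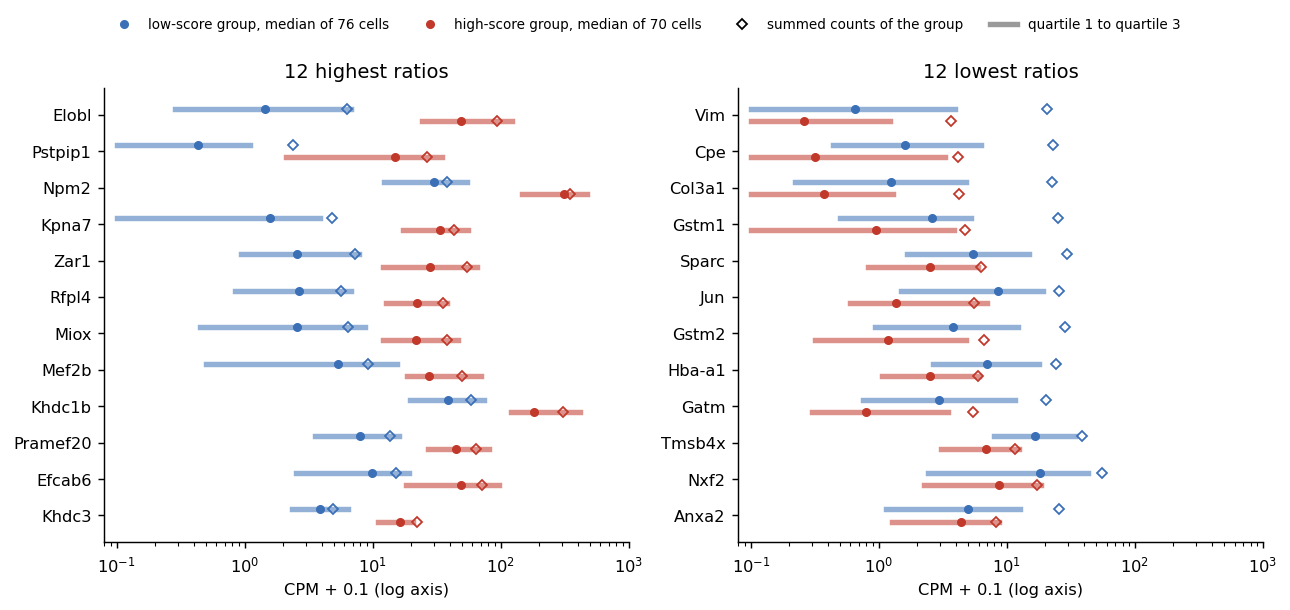
Levels of the 12 named genes at either end of the ratios (left, highest; right, lowest) in the low-score (blue) and high-score (red) group, as CPM plus 0.1 on a log axis; dots are medians over cells, bars span the quartiles and diamonds are the summed counts of a group. The low-score sum stands above the low-score median for genes at both ends. The gap is small for Npm2 (37.7 against 29.8 CPM) and wide for Pstpip1 (2.29 against 0.333 CPM) among the highest genes. It is wide for most of the lowest genes, as for Vim (20.5 against 0.549 CPM).

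Among other genes of the subcortical maternal complex and its relatives, Khdc3, Ooep, Nlrp14 and Nlrp4b were at least 2-fold higher in the high-score group. Of 14 listed, 8 were measured and 6 were not, and these 4 of the 8 passed, with 0 lower, beside 2.83% higher and 1.93% lower over all measured genes. Of the 4, Khdc3 and Nlrp4b were measured through the high-score group alone. The median log2 ratio of the 8 was 1.01, beside −0.04 over all. Khdc3, also called Filia, had medians of 3.75 CPM in low-score (0 to 17.8) and 16.2 CPM in high-score cells (0 to 88.9), and 68 of 70 high-score cells were above the low-score median. Ooep, whose protein binds that of Nlrp5, was chosen after its values were seen, with medians of 275.9 (23.2 to 961.5) and 607 CPM (90.1 to 2724) and a log2 ratio of 1.14, and its call ended with a score without Zp1, Zp2 and Zp3 and between the top and bottom 1 in 3 columns. Nlrp14, also chosen after its values were seen, had medians of 315.9 and 1407 CPM (log2 ratio 1.99), and 42 high-score cells lay above every low-score cell. Also at least 2-fold higher was Nlrp4b (log2 ratio 2.26), at summed levels of 2.67 and 12.7 CPM. At the low end were Tle6, the corepressor relative in the complex, with medians of 1360 and 1955 CPM (log2 ratio 0.56), and Nlrp4f, with 734 and 891 CPM (0.21).

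Genes of secreted factors and the egg surface that were higher were Astl, Bmp15, Izumo1r, Oosp2 and Tgfb2. Of 16 listed, 6 were measured and 10 were not, and these 5 were at least 2-fold higher and 0 lower, beside 2.83% and 1.93% over all. Oosp2 was measured through the high-score group alone. The median log2 ratio of the 6 was 1.39. Astl encodes ovastacin, the protease that cleaves ZP2 after fertilization. It ran from 0.106 to 254.2 CPM in low-score cells (median 41.7) and from 52.8 to 588 CPM in high-score cells (median 184.1), where all 70 cells were above the low-score median, and its log2 ratio was 2.04 (2.02 to 2.06). Bmp15, the partner growth factor of Gdf9, was chosen after its values were seen. It had medians of 2.68 CPM in low-score (0 to 253.9) and 24.2 CPM in high-score cells (0 to 88.1), and was counted in 77.6% and 95.7% of cells. Izumo1r, the egg receptor for the sperm protein IZUMO1 and likewise chosen later, had medians of 13.5 and 37.1 CPM (log2 ratio 1.34). Oosp2, an oocyte-secreted protein gene, and Tgfb2 had log2 ratios of 3.25 and 1.14 at summed high-score levels of 6.42 and 15.9 CPM. Neither passed the minimum of 20 CPM, and the call of Tgfb2 also ended with scores without Padi6 or without Zp1, Zp2 and Zp3 and between the top and bottom 1 in 8 columns. That of Izumo1r ended between the top and bottom 1 in 3. Cd9, the egg tetraspanin used in sperm fusion, had medians of 177.5 and 260.95 CPM (0.62).

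Among oocyte transcription regulators, Pou5f1 was higher and Taf7l lower. Of 17 measured, 1 was at least 2-fold higher, 1 lower and 14 (82.4%) uncalled at 1.5-fold, beside 2.83%, 1.93% and 83.4% of all measured genes. The median log2 ratio was 0.14. Figla, the basic helix-loop-helix factor of the coat genes, had medians of 446.6 CPM in low-score (170 to 822) and 383 CPM in high-score cells (208.8 to 556), a log2 ratio of −0.18. Nobox, a homeobox factor, had medians of 701 and 1022 CPM (0.53), and Lhx8 and Sohlh1 had log2 ratios of 0.27 and 0.14. These 4 genes were chosen after their values were seen, and all 4 overlapped between the groups. The regulator above 2-fold was Pou5f1, the pluripotency factor OCT4, with 0 to 49.8 CPM in low-score cells (median 8.29) and 8.25 to 90.8 CPM in high-score cells (median 33.8) and a log2 ratio of 1.78 (1.73 to 1.82). The one below was Taf7l, a germline TFIID subunit gene, with medians of 14.5 and 9.88 CPM (−1.25). The call of Taf7l ended in 8 of 26 settings, among them a score without Padi6 (−0.84), ERCC scaling (−0.85) and mean FPKM over cells (−0.87). Tbpl2, the oocyte form of the TATA-binding protein, had medians of 32.5 and 78.2 CPM (0.95).

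KIT, PI3K, mTOR and FOXO3 signalling controls whether a primordial oocyte stays dormant. Of 32 measured genes of this list 1 was at least 2-fold higher, 0 lower and 29 (90.6%) uncalled at 1.5-fold, beside 2.83%, 1.93% and 83.4% of all measured genes, and the median log2 ratio was −0.05. The called gene was Pik3r1, a regulatory subunit of PI3K, with medians of 8.65 CPM in low-score (0 to 126.6) and 47.5 CPM in high-score cells (1.03 to 83.7) and a log2 ratio of 1.15. Its call ended with a score without Padi6, at 0.89 with 0.5 CPM added. The catalytic subunit genes Pik3cd and Pik3ca had log2 ratios of 0.86 and −0.60. Kit, the receptor, and Foxo3, the factor that holds dormancy, were chosen after their values were seen. Kit had medians of 1079 and 1640 CPM (log2 ratio 0.36), and Foxo3 140.2 and 140.6 CPM (−0.14). Their transcript levels say nothing of the activity or location of the proteins, which were not measured.

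In the lists of stored-mRNA regulators and of DNA methylation and chromatin genes a few genes were called, all of them higher. The chromatin genes Suv39h1 and Cdca7, outside these lists, were called lower and are given below. Of 21 stored-mRNA genes measured, 4 were at least 2-fold higher and 0 lower, beside 2.83% and 1.93% of all measured genes, with a median of −0.06. Besides Zar1, the highest was Eif4e1b, an oocyte variant of the cap-binding protein eIF4E, at 0 to 2.37 CPM in low-score cells (median 0) and 0 to 106.2 CPM in high-score cells (median 1.39). It was measured through the high-score group alone, and its call ended when cells were thinned to the lowest total. At the low end, Ybx2, an abundant mRNA-binding protein of germ cells, had medians of 156.5 and 95.1 CPM (log2 ratio −0.65), and Tut4, which adds uridines to RNA, had 6.30 and 3.59 CPM (−0.98). Of 21 DNA methylation and chromatin genes, 3 were at least 2-fold higher and 0 lower, with a median of 0.04. They were Npm2, Uhrf1 and H1foo. Uhrf1, a partner of the maintenance DNA methyltransferase, ran from 105.05 to 1393 CPM in low-score (median 346.4) and 341 to 2388 CPM in high-score cells (median 865), a log2 ratio of 1.23, and its call ended with a score without Padi6. H1foo, the linker histone of the oocyte, had medians of 124.9 and 290.9 CPM (1.47). Eed, a subunit of Polycomb repressive complex 2, had 113.9 and 62.9 CPM (−0.81).

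Genes for arrest and resumption of meiosis had 24 measured members, of which 2 were at least 2-fold higher and 0 lower (median 0.20), beside 2.83% and 1.93% of all measured genes. Cdc25b, the phosphatase that activates CDK1 when meiosis resumes, had medians of 6.46 CPM in low-score (0 to 105.3) and 58.5 CPM in high-score cells (1.68 to 216.1), and the kinase gene Aurkc had 1.12 and 6.23 CPM. Their log2 ratios were 1.97 and 1.36. Aurkc was measured through the high-score group alone, and its call ended with a score without Padi6 and when cells were thinned. Meiotic prophase genes, the programme of the fetal stage, had 34 measured members with 0 calls in either direction and a median of −0.12, where 4.77% of all measured genes were called. Syce3, of the synaptonemal complex, was lowest, with medians of 18.8 and 10.2 CPM (log2 ratio −1.03), and Ccdc36 highest, with 3.14 and 14.3 CPM (0.77). Bax, a promoter of cell death from the list of DNA damage and cell death genes, had medians of 87.7 and 58.8 CPM (log2 ratio −0.44).

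Metabolic and housekeeping lists of 11 to 31 measured genes had 0 calls, where 4.77% of all measured genes were called. Glycolysis (15 measured, median 0.32), cholesterol synthesis (20, median 0.14), autophagy (23, median 0.02), translation (27, median 0.03), ribosome biogenesis (26, median −0.09), the proteasome (31, median −0.10), the nuclear-encoded respiratory chain (30, median −0.22) and gap junction, adhesion and Notch genes (11, median 0.03) were the lists read. Insig1, which holds back sterol synthesis, had medians of 177.1 and 311.4 CPM (log2 ratio 0.75). Chosen after their values were seen were 2 enzymes of glucose use outside the glycolysis list. G6pdx, the entry enzyme of the pentose phosphate pathway, had medians of 109.001 and 302.1 CPM (1.37), and Pfkfb3, which makes an activator of glycolysis, 8.96 and 58.04 CPM (1.58). Of 17 stress response genes 1 was higher, Chac1 (log2 ratio 1.80), and 1 lower, Trib3 (−1.72), beside 2.83% and 1.93% of all measured genes. Each was measured through 1 group alone. Both are targets of the factor ATF4, whose own transcript Atf4 had medians of 120.1 and 67.6 CPM (−0.83).

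**Figure D4:**
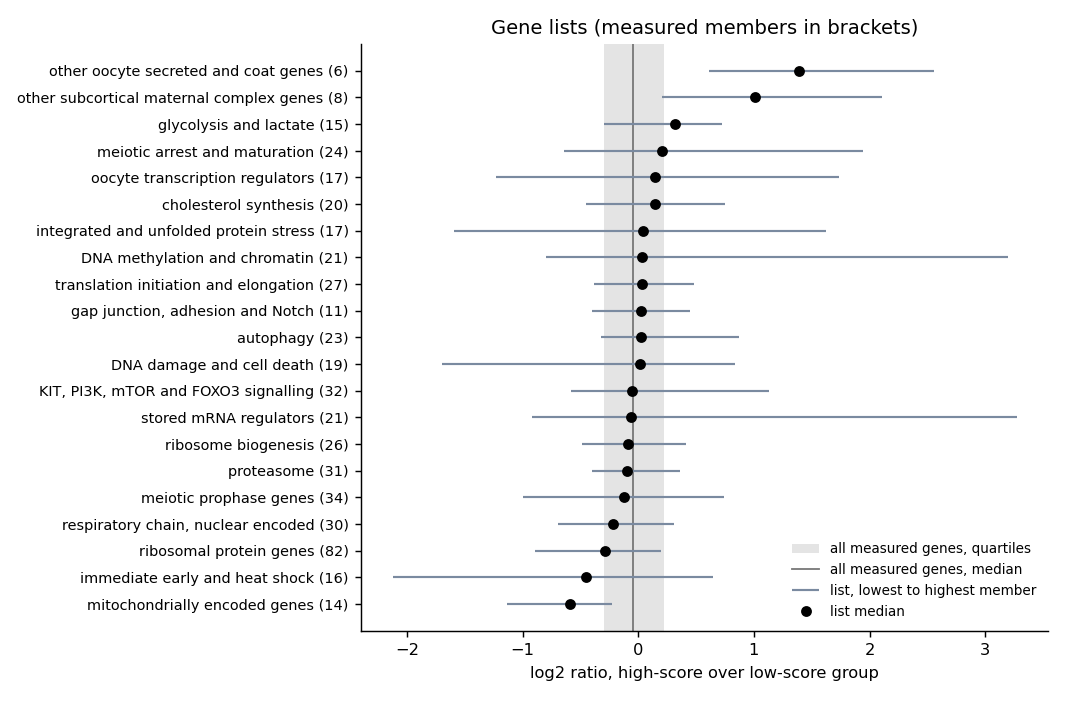
Log2 ratio, high-score over low-score group, for each gene list (black dot, median; line, lowest to highest measured member), beside the quartiles (grey band) and median (grey line) of all measured genes. The secreted and coat list (median 1.39) and the other subcortical complex genes (1.01) lie to the right of the band, and the mitochondrially encoded (−0.59) and immediate early (−0.45) lists to its left.

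Mitochondrially encoded transcripts took a smaller share of counts in the high-score group. The share ran from 1.17% to 7.67% in low-score cells (median 3.47%) and from 1.37% to 3.80% in high-score cells (median 2.48%), and 2 of 70 high-score cells lay above the low-score median. The middle groups had 2.90% and 2.702%, and the P6.5 median was 1.82%. All 14 measured mitochondrial genes had ratios below 0, from −1.13 to −0.22. Of these, 1 was called 2-fold lower, the transfer RNA gene mt-Tp, beside 1.93% of all measured genes. That call ended in 7 of 26 settings, among them TMM, median-of-ratios and ERCC scaling and ratios centred by transcript length. Ribosomal protein genes (82 measured, 0 past 2-fold, beside 4.77% of all) had a median log2 ratio of −0.28. Transcript length moved with these values. Genes under 1 kb (1000 bases) had a median ratio of −0.30 and those of 1 to 2 kb −0.09, against −0.01 for both longer classes. Whether length, depth or markers of other cells have a part in these ratios was not tested. After ERCC scaling the median of all genes was 0.33.

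Many of the 12 named genes with the lowest ratios are known from somatic or blood cells. Vim (vimentin), Col3a1 and Sparc (matrix genes), Cpe, Gstm1, Gstm2, Gatm, Tmsb4x, Anxa2 and the alpha globin gene Hba-a1 had log2 ratios of −2.52 to −1.63. For 7 of the 12 genes the low-score median was under 5 CPM, so the summed ratio rested on a minority of cells. Vim ran from 0 to 871 CPM in low-score cells (median 0.549) and from 0 to 75.6 CPM in high-score cells (median 0.158). Without the cells that carried markers of other types, the ratio with 0.5 CPM added went from −2.37 to −0.89 for Vim, from −2.34 to −0.80 for Cpe, from −2.31 to −0.96 for Col3a1, from −2.14 to −0.97 for Sparc, from −1.96 to −0.60 for Hba-a1 and from −1.57 to −0.36 for Anxa2. These 6 genes then no longer passed 2-fold. Col3a1 is itself in the stroma list and Hba-a1 in the erythroid list by which those cells were chosen. Leaving such cells out shrinks the ratios of both genes by construction, so the end of their calls is not a separate result. Whether the choice of cells has the same part in the ratios of Vim, Cpe, Sparc and Anxa2 was not tested.

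The other 6 of these 12 genes stayed past 2-fold in the cells without such markers, most of them by less than before. With 0.5 CPM added, the ratio went from −2.32 to −1.0015 for Gstm1, which is at the limit, from −1.81 to −1.05 for Gatm, from −2.04 to −1.21 for Gstm2 and from −1.71 to −1.18 for Tmsb4x. Jun, an immediate early transcription factor, ran from 0 to 624 CPM in low-score (median 8.49) and 0 to 62.2 CPM in high-score cells (median 1.25), and 54 of 70 high-score cells were below the low-score median. Its ratio with 0.5 CPM added was −2.12 over all cells and −1.33 without those cells. Nxf2, an RNA export factor of the germ line on the X chromosome, had medians of 17.9 and 8.59 CPM, and its ratio was −1.68 over all cells and −1.76 without them, while its call ended between the top and bottom 1 in 8 columns. Immediate early and heat shock genes had 16 measured members, of which 2 were at least 2-fold lower (Jun and the phosphatase gene Dusp1) and 0 higher, beside 1.93% and 2.83% of all measured genes, with a median of −0.45. Dusp1 was measured through the low-score group alone, and its call ended when cells were thinned. Egr1 and Fos, chosen after their values were seen, had log2 ratios of −0.71 and −0.42.

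Several genes at higher levels were also lower in the high-score group, and the following were chosen after their values were seen. Neb, for the muscle protein nebulin (ENSMUSG00000026950.17), ran from 44.5 to 1373 CPM in low-score cells (median 568) and 84.7 to 657 CPM in high-score cells (median 243.5), where 69 of 70 cells were below the low-score median. Its log2 ratio was −1.06 (−1.07 to −1.05), close to the 2-fold limit, and its call ended in 9 of 26 settings, among them TMM scaling and leaving out cells with other markers. Id3, an inhibitor of helix-loop-helix factors, had medians of 107.5 (15.7 to 631) and 48.2 CPM (3.84 to 223.98), with 64 high-score cells below the low-score median. Its call ended with a score without Padi6 and with ERCC scaling, and that of Platr14 with ERCC scaling. The noncoding RNA gene Platr14 had medians of 54.5 and 22.4 CPM (log2 ratio −1.32), and the Notch target Hes1 24.5 and 9.57 CPM (−1.52). Suv39h1, a histone H3 lysine methyltransferase gene, had 65.9 and 31.5 CPM (−1.11), and Cdca7, a chromatin factor gene, 70.4 and 27.7 CPM (−1.19). The call of Suv39h1 ended in 10 of 26 settings, TMM, median-of-ratios and ERCC scaling included, and that of Cdca7 in 6, median-of-ratios and ERCC scaling included. All of these ranges overlapped.

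The 2 middle groups, whose columns entered neither sum, were compared with each other for the called genes. Calls measured through 1 score group alone were included. Whether the middle medians lay between those of the ends was not counted. Of the higher genes 94.8% had a higher median in the upper than in the lower middle group, beside 53.2% of all measured genes. Of the lower genes 77.3% had a lower one, beside 46.8%. Npm2 had medians of 29.8, 69.1, 124.4 and 309.9 CPM from the low-score to the high-score group, and Astl 41.7, 100.2, 120.3 and 184.1 CPM. Elobl had 1.34, 7.73, 17.1 and 48.8 CPM, and Id3 went down through 107.5, 93.6, 71.2 and 48.2 CPM. The middle groups were ranked by the same score, so this describes a graded range.

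The genes called at P2.5 were then read in the libraries of the other ages, which the rule did not use. In 50.6% of these calls the gene was measured through 1 P2.5 group alone. Such genes were not split off here or in the P6.5 comparison that follows. Of the higher genes 80.3% were past 2-fold, and higher, in the P6.5 over the E17.5 sum, beside 26% of all measured genes, and 15 were at least 2-fold lower. Of the lower genes 68.7% were past 2-fold, and lower, in the same ratio, beside 23.3%, and 33 were higher. Without 4 E17.5 libraries that were low in germ cell markers (a setting added once values were known), 82.2% of higher and 68.2% of lower genes went the same way, beside 27% and 24%. The E17.5 and P6.5 sums of Elobl were 1.06 and 1423 CPM, those of Npm2 0.29 and 802 CPM, of Zar1 0.566 and 689 CPM and of Astl 0.241 and 581 CPM. For all 12 genes with the highest ratios the P6.5 sum was 2 or more times the E17.5 sum. Every E17.5 library carried RNA of other cell types by the marker rule used for P2.5. Erythroid markers there came to 214.9 to 5866 CPM (median 1735), against a median of 0.988 CPM at P6.5. Whether such RNA has a part in the ratios between these ages was not tested. Age and the libraries of that age cannot be told apart.

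The same score also ranked the 47 P6.5 libraries, whose 11 highest had scores of at least 45024 CPM and whose 11 lowest had at most 25196 CPM. Between these, all but 10 of the higher genes were measured, and 95 of them (31.8%) were at least 2-fold higher in the high-score P6.5 libraries, beside 2.28% of the 10221 genes measured in both ages. In all 84.3% were higher by any amount, beside 34.8%, and 47 genes were lower. Of the lower genes 61 (28.9%) were measured, 24 (39.3%) of them at least 2-fold lower, beside 3.66%, and 52 (85.2%) lower by any amount, beside 65.2%. Over the 10221 genes the 2 sets of ratios had a Pearson r of 0.41 and a Spearman rho of 0.31, across genes, which are not independent replicates. Zar1 had a P6.5 log2 ratio of 1.90, Npm2 1.31, Kpna7 1.11, Bmp15 1.60 and Dnmt1 2.23, whereas at P2.5 Dnmt1 had 0.91 and was not called. Elobl (0.33) and Oas1c (0.34), both far apart at P2.5, differed little at P6.5, and Mef2b was lower (−0.55). Dnmt1 and Oas1c were chosen after their values were seen. Gene counts per ERCC count had medians of 2564 and 4299 in the P6.5 groups, a 1.68-fold difference against 1.17-fold at P2.5, and whether these folds differ was not tested.

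**Figure D5:**
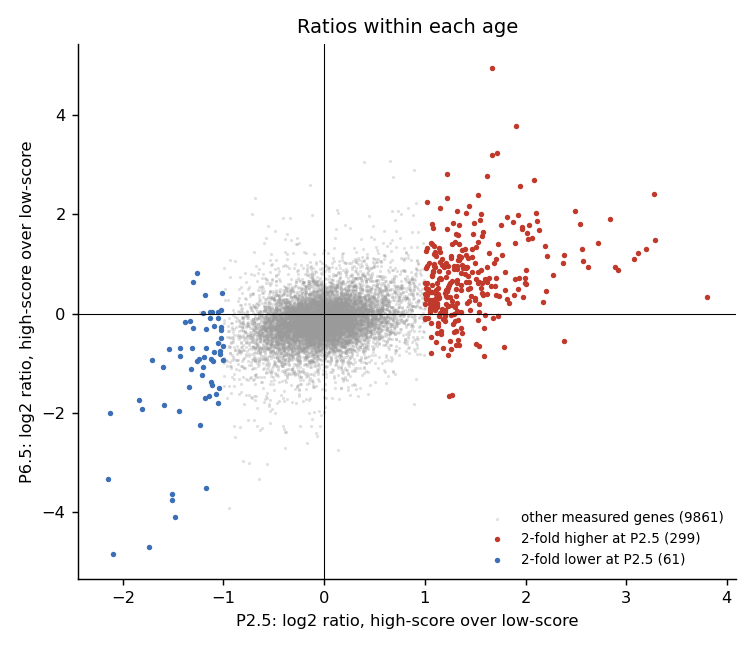
Log2 ratio of high-score over low-score group by growth score within P2.5 (x axis) and within P6.5 (y axis) for 10221 genes measured in both; red and blue mark genes at least 2-fold higher or lower (61) at P2.5. Most red points (84.3%) lie above and most blue points (52) below the horizontal line at 0.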

How the data were processed

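Single female germ cells were profiled in 386 libraries of 3 ages, 317 of them P2.5 (293 cells once pairs were joined). Per the file headers and values, the deposited tables hold, per gene and library, raw counts in one and FPKM values in the other. The submitters' processing notes list STAR 2.7.10b, RSEM 1.3.3, HTSeq 0.13.5 and mm10. The sources used here do not give which tool made which table, the annotation or the strand setting. ERCC rows stayed out of library sizes. Near-identical columns were found by a chi-square per gene (genes of at least 20 summed counts): 24 P2.5 pairs had a median of 0.686 to 1.03, against at least 2.31 in 10 other nearest pairs and 3.39 in 300 random ones, and those under 1.5 were counted as 1 cell within a score group. No pair was divided between a score group and the rest, and 0 columns belonged to no library. Counts were summed per group (158 columns in both), scaled to CPM and compared after adding 0.5 CPM. By this rule 309 genes were higher and 211 lower. Log2 ratios of named genes are without that addition, and their intervals are exact conditional Poisson intervals, which cover counting only since reads carry no molecular identifiers. Since cells were picked by hand, no doublet caller was run, and RNA of other cell types was read from marker lists. Lengths are transcript lengths in GENCODE M21, with a value for 99.8% of measured genes. The calculation was checked on simulated data. Python 3.11.15, pandas 2.3.3, SciPy 1.17.1 and edgeR 4.0.16 (scaling factors only) were used.

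Named genes are the 6 rule genes, the 12 highest and 12 lowest ratios among called genes with at least 20 CPM (without unnamed models, pseudogenes and mitochondrial genes), up to 2 members at either end of each list, Ddx4 and Dazl. Every other gene was chosen later, which the text says for most of them. The cells, gene lists and tests were chosen with earlier results of these data known. In all 26 other settings were tried.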

Additional observations from a re-analysis of the deposited data

How the results depend on the processing

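The shares of measured genes called higher (2.83%) and lower (1.93%), and the 1.17-fold difference in gene counts per ERCC count, were recomputed under 26 other settings, and 0 genes called in one direction were called in the other under any of them. The number of calls moved by over 1.5 times to 1.83% higher and 1.23% lower with a score without Padi6, 1.03% and 0.75% with a score per ERCC count, 4.58% and 4.22% between the top and bottom 1 in 8 columns, 4.77% and 1.15% with median-of-ratios scaling, 7.51% and 0.687% with ERCC scaling, 3.58% and 5.37% with a filter of 1 CPM and 3 cells and 1.91% and 0.653% with one of 20 CPM. Lower genes were 1.11% between the top and bottom 1 in 3 columns, and higher genes 10.8% with median CPM over cells. The fold of gene counts per ERCC count was 4.19 with a score per ERCC count, which ranks by that quantity in part, 1.31 between the top and bottom 1 in 8 and 0.957, the other direction, within bins of gene counts. With a score per ERCC count, 8 named genes turned from lower to higher, with log2 ratios of 0.85 for Vim, 1.002 for Cpe, 1.12 for Gstm1, 0.19 for Sparc, 0.35 for Gatm, 0.083 for Nxf2, 0.42 for Anxa2 and 0.17 for Taf7l. Those of Cpe and Gstm1 were past 2-fold in the sums, yet neither gene was called higher, since a call has further conditions. The cause of these turns was not tested. Leaving out cells under 1000 ERCC counts removed none. No paired analysis was possible because the result comes from no test. Depth limits genes under about 5 CPM, which were not measured.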
